A study of Mus musculus with 36 samples.

Results

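Connexin and pannexin genes encode the subunits of large membrane channels, and the 9 described here (Gjc3, Gjb1, Gjb2, Gja1, Gja4, Gja5, Gjc1, Panx1 and Panx2) were chosen by their symbols among the 52636 genes of the count table. They were read in 3 kinds of cells sorted by FACS from muscles of S100β-GFP;NG2-dsRed mice, taken from the limbs, diaphragm and chest. The cells were S100β-GFP+;NG2-dsRed+ PSCs (perisynaptic Schwann cells, the glia of the neuromuscular junction; 9 libraries), S100β-GFP+ cells (8 libraries) and NG2-dsRed+ cells (10 libraries). The labels put 8 columns of the count table in the S100β-GFP+ group, more than the study kept after quality control, so a library that the study left out may be among them. All mice carried the same transgenes, S100b-EGFP, in which the S100b promoter drives GFP, and Cspg4-DsRed, in which the promoter of the NG2 gene drives dsRed, and no animal was treated. Per the study's methods each library came from the cells of a single mouse, taken between postnatal days 15 and 21. The labels give age ranges that begin at day 15 and end between day 21 and day 46. The upper end rises in single days with the library number until it reaches day 46. Whether these ends are true ages of the mice is not known here. The gates are defined by promoter activity alone, so a sorted population can hold any muscle cell type that uses the promoter. In bulk RNA of sorted cells, fewer cells of a type and less RNA per cell cannot be told apart.

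Connexin subunits assemble into hexameric hemichannels, and hemichannels of apposed membranes dock into gap junctions that pass ions and small metabolites between cells or, in myelinating Schwann cells, between layers of the same myelin sheath. Pannexins form channels that do not usually dock and are known as a route of ATP release. In peripheral nerve, connexin 32 (Gjb1) and connexin 29 (Gjc3) are the connexins of Schwann cells, and loss of Gjb1 causes a demyelinating neuropathy. In blood vessels, connexins 37 (Gja4), 40 (Gja5), 43 (Gja1) and 45 (Gjc1) couple endothelium and smooth muscle.

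The promoters of the members with contrasting levels are shown because the leading connexin differed between cell types. Windows from 250 bases before to 50 bases after the annotated start were taken from RefSeq (GRCm38.p6), which matched 7 of the 9 members. The entries for Gjc1 and Panx2 were missing. The letters ACAAAG and ACAATG, the core that SOX proteins such as the Schwann cell factor SOX10 bind, were searched on both strands, and matches are in capitals. Of all 32851 RefSeq windows of this length 28.6% held a match. Gjc3, the leading connexin of PSCs, has the window chr5:137963049-137963348 on the minus strand. Gjb1 has 4 windows, and the most downstream, chrX:101383482-101383781 on the plus strand, is shown. For Gjb2, the window is chr14:57104653-57104952 on the minus strand. The vascular connexins Gja4 and Gja5 have the windows chr4:127313990-127314289 (minus strand) and chr3:97032152-97032451 (plus strand).
Gjc3: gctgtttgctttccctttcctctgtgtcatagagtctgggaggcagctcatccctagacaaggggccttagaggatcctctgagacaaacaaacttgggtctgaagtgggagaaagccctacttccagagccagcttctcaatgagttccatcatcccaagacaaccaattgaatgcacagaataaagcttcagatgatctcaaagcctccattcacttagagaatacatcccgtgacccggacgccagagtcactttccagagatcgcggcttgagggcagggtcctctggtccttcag
Gjb1: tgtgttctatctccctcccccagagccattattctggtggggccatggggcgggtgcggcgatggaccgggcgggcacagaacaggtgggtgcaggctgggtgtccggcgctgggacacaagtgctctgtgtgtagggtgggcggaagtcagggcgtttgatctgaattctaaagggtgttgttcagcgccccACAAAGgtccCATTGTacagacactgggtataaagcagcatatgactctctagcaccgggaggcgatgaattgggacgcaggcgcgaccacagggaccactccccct
Gjb2: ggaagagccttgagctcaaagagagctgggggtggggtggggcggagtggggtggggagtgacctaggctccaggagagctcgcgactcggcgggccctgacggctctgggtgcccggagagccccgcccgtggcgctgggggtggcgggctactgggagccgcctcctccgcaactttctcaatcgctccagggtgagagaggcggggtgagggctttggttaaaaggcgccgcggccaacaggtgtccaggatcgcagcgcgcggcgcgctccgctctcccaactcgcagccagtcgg
Gja4: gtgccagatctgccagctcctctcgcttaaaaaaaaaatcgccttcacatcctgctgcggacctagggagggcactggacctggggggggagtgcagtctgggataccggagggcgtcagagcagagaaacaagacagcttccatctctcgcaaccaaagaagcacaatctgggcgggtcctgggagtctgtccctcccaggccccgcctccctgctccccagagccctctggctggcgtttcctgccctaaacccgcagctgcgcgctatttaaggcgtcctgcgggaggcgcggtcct
Gja5: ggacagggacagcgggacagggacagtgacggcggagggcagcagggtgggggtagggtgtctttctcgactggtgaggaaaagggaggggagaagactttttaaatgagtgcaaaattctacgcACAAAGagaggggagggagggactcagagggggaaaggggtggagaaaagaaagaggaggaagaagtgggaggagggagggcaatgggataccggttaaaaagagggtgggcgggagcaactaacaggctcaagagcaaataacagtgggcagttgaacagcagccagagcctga
The Gjb1 window held 2 matches, 1 on each strand, and that of Gja5 held 1. No match lay in the windows of Gjc3, Gjb2, Gja4, Gja1 or Panx1. Among the other 3 windows of Gjb1 the most upstream held 1. The Gjb2 window is the richest in GC of those shown, with 70.0% and 27 CpG, against 50.7% and 5 CpG for Gjc3 (the median over all windows was 52.7% GC).

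Libraries had 5221655 to 9592875 counts on genes. Of these, 3.64% (PSC library 36) to 40.0% (NG2-dsRed+ library 15) fell on 3 genes (Lars2, Gm23935 and Gm15564), so the counts left for other genes varied more. Levels are given as CPM (counts per 1000000 of the library size after TMM normalization). PSC libraries had the markers of the Schwann cell lineage (summed over 8 genes, 2190 to 3321 CPM, of which Sox10 had a mean of 506 ± 103 CPM, SD, n = 9). The genes of myelin (summed over 8 genes) had like sums in PSC libraries (2547 to 3469 CPM) and S100β-GFP+ libraries (1526 to 3685 CPM), and 306 to 1058 CPM in NG2-dsRed+ libraries. S100β-GFP+ libraries had little Sox10 (20.2 ± 12.0 CPM, SD, n = 8), and they held high fibroblast markers (18323 to 41846 CPM over 6 genes, against 703 to 2873 in PSCs) and macrophage markers (222 to 1456 CPM over 5 genes, against 2.07 to 11.5). Schwann cell markers alone therefore do not describe this population, and it is called by its gate here. NG2-dsRed+ libraries had markers of pericytes and smooth muscle (6782 to 14916 CPM over 8 genes) and of endothelium (1614 to 3821 CPM over 8 genes). They also held fibroblast markers, with sums of 2236 to 19175 CPM (median 8501). S100β-GFP+ libraries 14, 17 and 22 stood apart. They had endothelial sums of 907 to 2883 CPM, against 134 to 211 in the other 5, and counts on 25890, 29103 and 38568 genes, against 19669 to 23292. Tek, 1 of the 8 endothelial markers, made up much of the smaller S100β-GFP+ sums. It had 81.7 to 204 CPM in S100β-GFP+ libraries, where the lowest levels of Pecam1 and Cdh5 were 8.88 and 5.99 CPM. Mean Tek was 134 CPM there, 140 CPM in NG2-dsRed+ cells and 19.4 CPM in PSCs. Among PSCs, library 18 had counts on 14616 genes, the fewest of all libraries, and the largest sum of muscle fibre markers (1191 CPM, against 112 to 574 in the other PSC libraries). Differences given here that leaving out these libraries turned, called or moved by over 1.5 times are given with and without them.

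A member was tested if it passed a filter on low counts, which 8 of the 9 did, and was called at an adjusted p under 0.05 by edgeR's quasi-likelihood test. Against S100β-GFP+ cells, Gjc3 and Gjb2 were higher in PSCs and Panx1 was lower (2 and 1 of 8 tested, where 22.9% and 24.1% of all genes tested were called higher and lower). Relative to NG2-dsRed+ cells, Gjc3, Gjb1 and Gjb2 were higher in PSCs and Gja1, Gja4, Gja5 and Gjc1 were lower (3 and 4 of 8, with 20.9% and 23.1% of all genes). Between S100β-GFP+ and NG2-dsRed+ cells, Gjc3, Gjb1 and Panx1 were higher and Gjb2, Gja4, Gja5 and Gjc1 were lower in S100β-GFP+ cells (3 and 4 of 8, with 18.1% and 15.2% of all genes). The median log2 fold changes of the 8 tested members were -0.26, -0.03 and -1.58, and those of all genes tested 0.04, 0.02 and -0.02. The comparisons share libraries, so their results are not independent.

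**Figure D1:**
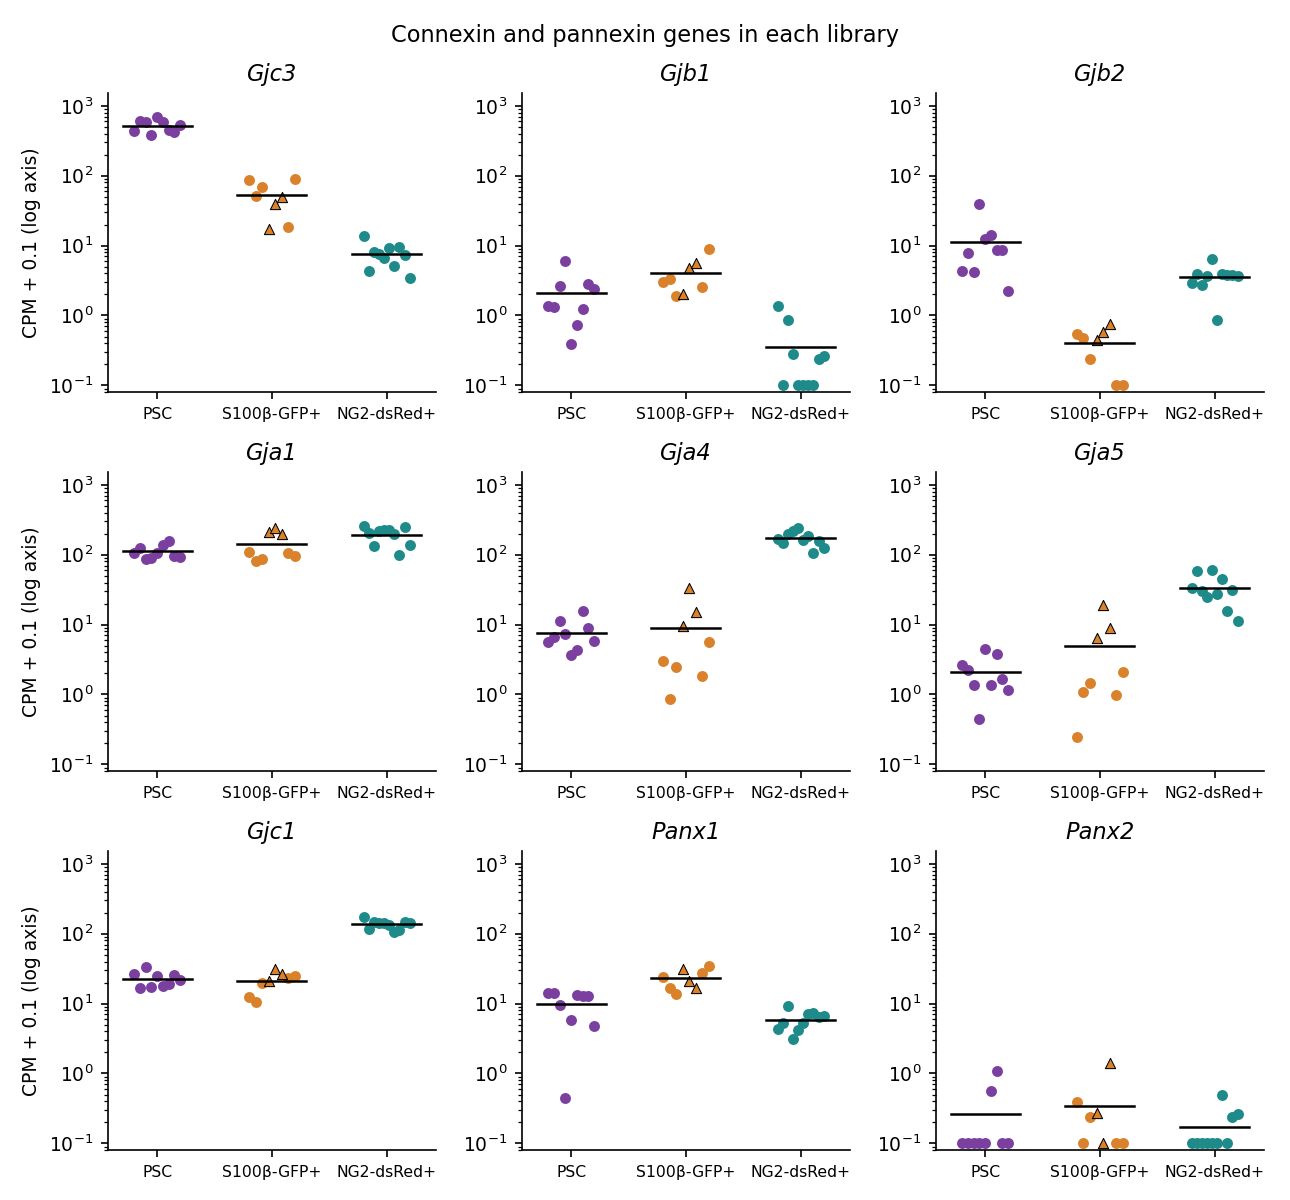
Level of each member in every library, as CPM plus 0.1 on a log axis, for PSCs (9 libraries), S100β-GFP+ cells (8) and NG2-dsRed+ cells (10). Lines are means, and outlined triangles are S100β-GFP+ libraries 14, 17 and 22. Gjc3 falls in 3 bands that do not overlap (388 to 691, 16.9 to 89.4 and 3.40 to 13.5 CPM), while the S100β-GFP+ triangles lie above the other libraries of their group for Gja1, Gja4 and Gja5.

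Gjc3 (ENSMUSG00000056966, chromosome 5, 137953461 to 137963098), which encodes the connexin 29 of myelinating Schwann cells and oligodendrocytes, was the most abundant member in PSCs. It had a lowest level of 388, a median of 524 and a highest level of 691 CPM in PSC libraries. S100β-GFP+ libraries ran from 16.9 to 89.4 CPM around a median of 50.1, and NG2-dsRed+ libraries from 3.40 to 13.5 CPM around 7.34. The 3 cell types did not overlap, and every PSC library lay above every other library. PSCs exceeded S100β-GFP+ cells 9.94-fold (log2 3.31, standard error 0.31, adjusted p = 3.26e-10) and NG2-dsRed+ cells 70.3-fold (6.13, standard error 0.32, adjusted p = 3.37e-15). The S100β-GFP+ cells exceeded NG2-dsRed+ cells 7.07-fold (2.82, standard error 0.29, adjusted p = 4.23e-09). Inside the S100β-GFP+ group the lowest and highest levels went with the sum of Schwann lineage markers. Libraries 14 and 27, with the lowest sums (66.3 and 77.9 CPM), had the lowest Gjc3 (16.9 and 18.1 CPM). Libraries 33 and 1, with the highest sums (451 and 304 CPM), had the highest (89.4 and 86.8 CPM). Library 17, with the next highest sum (183 CPM), had 39.5 CPM, below libraries 3, 11 and 22. The sums of the genes of myelin were likewise lowest in libraries 14 and 27 (1526 and 1550 CPM) and highest in 33 and 1 (3685 and 3643 CPM). The part of these markers in the group's level was not tested.

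Connexin 32, the product of Gjb1 (ENSMUSG00000047797, chromosome X, 101376378 to 101385629), forms the gap junctions within the myelin sheath. Its RNA was scarce in all 3 cell types. PSC libraries had 0.287 to 5.96 CPM with a median of 1.26, S100β-GFP+ libraries 1.80 to 8.88 CPM with a median of 3.08, and NG2-dsRed+ libraries 0 to 1.28 CPM, with 5 of the 10 at 0 and 18 counts in all. PSCs overlapped both other cell types, while every S100β-GFP+ library lay above every NG2-dsRed+ library. Gjb1 was higher than in NG2-dsRed+ cells in both PSCs (log2 fold change 2.84, standard error 0.66, adjusted p = 0.000768) and S100β-GFP+ cells (3.82, standard error 0.68, adjusted p = 4.46e-05). NG2-dsRed+ library 2 held 9 of the 18 counts, and without it the differences were 3.66 and 4.61 (adjusted p = 5.45e-05 and 4.24e-06). PSCs and S100β-GFP+ cells did not differ beyond the replicate error by edgeR (-0.98, standard error 0.60, adjusted p = 0.186). limma-voom with sample quality weights called this difference (-1.17, adjusted p = 0.0337). The highest PSC level, 5.96 CPM, came from library 18, and without that library the difference was -1.30 (adjusted p = 0.0620). By mean level Gjc3 was highest in PSCs and Gjb1 in S100β-GFP+ cells, whose lead over PSCs was not called.

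Gjb2 (ENSMUSG00000046352, chromosome 14, 57098600 to 57104702), which encodes connexin 26, the channel of epithelia, the inner ear and the leptomeninges, was detected mainly in PSCs and NG2-dsRed+ cells. In PSC libraries it had 2.11 to 39.8 CPM with a median of 8.56. NG2-dsRed+ libraries held 0.772 to 6.31 CPM (median 3.61), whereas S100β-GFP+ libraries had 0 to 0.658 CPM and only 15 counts in all. Every PSC and NG2-dsRed+ library was above every S100β-GFP+ library, and PSCs overlapped NG2-dsRed+ cells. The log2 fold change of PSCs was 5.11 against S100β-GFP+ cells (34.5-fold, standard error 0.59, adjusted p = 2.48e-08) and 1.69 against NG2-dsRed+ cells (3.23-fold, standard error 0.43, adjusted p = 0.00187). S100β-GFP+ cells were lower than NG2-dsRed+ cells by 3.41 on the log2 scale (log2 fold change -3.41, standard error 0.57, adjusted p = 2.12e-05). The level of 39.8 CPM in PSC library 18 was far above the next, 13.9 CPM. Without it both PSC differences remained past the threshold, at 4.60 (adjusted p = 7.91e-09) and 1.22 (adjusted p = 0.00655).

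**Figure D2:**
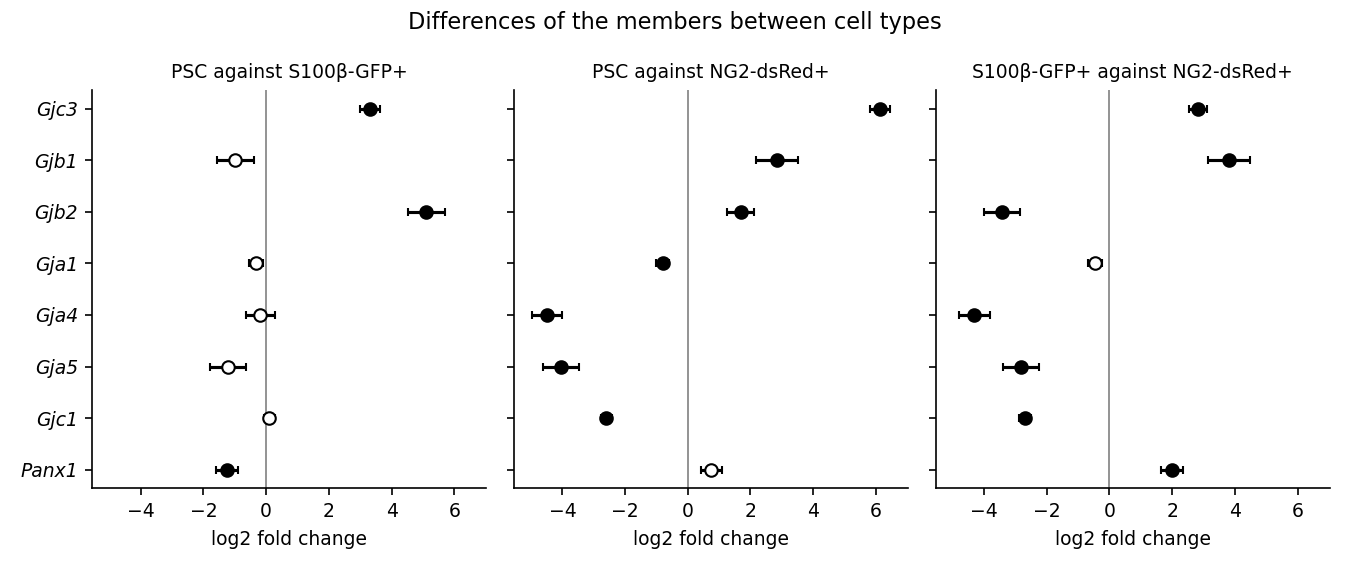
Log2 fold change of each tested member in the 3 comparisons, with bars of 1 standard error. Positive values are higher in the cell type named first, filled points have an adjusted p under 0.05 by edgeR's quasi-likelihood test, and open points do not. Gjc3 is to the right of 0 in all 3 panels, Gjb2 lies at 5.11, 1.69 and -3.41, and Gja4, Gja5 and Gjc1 lie well to the left of 0 in both comparisons with NG2-dsRed+ cells.

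Gja1 (ENSMUSG00000050953, chromosome 10, 56377330 to 56402513) encodes connexin 43, the most widely used connexin of the body, found in fibroblasts, smooth muscle, endothelium and astrocytes. It was high in every library. PSC libraries had 87.5 to 155 CPM (median 107), S100β-GFP+ libraries 80.5 to 240 CPM (median 108) and NG2-dsRed+ libraries 97.4 to 254 CPM (median 209). All 3 ranges overlapped. PSCs were lower than NG2-dsRed+ cells (log2 fold change -0.81, standard error 0.21, adjusted p = 0.00270). Their difference from S100β-GFP+ cells was within the replicate error (-0.34, standard error 0.22, adjusted p = 0.221), as was that between S100β-GFP+ and NG2-dsRed+ cells by edgeR (-0.47, standard error 0.22, adjusted p = 0.105). The latter was called by limma-voom (-0.70, adjusted p = 0.00239) and with a term for the share of counts on 3 genes (-0.54, adjusted p = 0.0195) or for gene detection (-0.79, adjusted p = 0.00816). S100β-GFP+ libraries 14, 17 and 22 had 212, 240 and 195 CPM, and the other 5 had 80.5 to 110 CPM. Without the 3, the difference of PSCs from S100β-GFP+ cells changed sign and stayed uncalled (0.27, adjusted p = 0.284), and S100β-GFP+ cells were lower than NG2-dsRed+ cells (-1.04, adjusted p = 0.000145).

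The vascular connexins Gja4 and Gja5 were highest in NG2-dsRed+ cells. Gja4 (ENSMUSG00000050234, chromosome 4, 127311421 to 127314039), which encodes connexin 37 of arterial endothelium, had 106 to 241 CPM with a median of 165 in NG2-dsRed+ libraries. PSC libraries ran from 3.63 to 15.3 CPM (median 6.45) and S100β-GFP+ libraries from 0.750 to 33.1 CPM (median 4.23). No library of the other cell types reached the lowest NG2-dsRed+ library. PSCs were 22.5-fold lower than NG2-dsRed+ cells (log2 fold change -4.49, standard error 0.48, adjusted p = 7.99e-09), and S100β-GFP+ cells 19.8-fold lower (-4.30, standard error 0.50, adjusted p = 6.68e-08). Without S100β-GFP+ library 17 the latter was -5.01 (adjusted p = 6.71e-10), and without libraries 14, 17 and 22 it was -6.07 (adjusted p = 8.07e-12).

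PSCs and S100β-GFP+ cells had similar means of Gja4, 7.61 ± 3.71 CPM (SD, n = 9) and 8.82 ± 10.9 CPM (SD, n = 8), and their log2 difference was -0.18 (standard error 0.46, adjusted p = 0.770). The S100β-GFP+ mean rested on libraries 14, 17 and 22, with 9.35, 33.1 and 14.8 CPM. Libraries 1, 3, 11, 27 and 33 had 0.750 to 5.55 CPM. Without libraries 14, 17 and 22 the direction turned, and Gja4 was higher in PSCs (log2 fold change 1.62, adjusted p = 0.000597). Leaving out library 17 alone also turned the sign, without a call (0.52, adjusted p = 0.304).

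Connexin 40, the product of Gja5 (ENSMUSG00000057123, chromosome 3, 96904693 to 97077416), couples endothelial cells of arteries and the conduction system of the heart. Its span overlaps genes on the opposite strand, among them Gpr89, 9230114J08Rik and 4930573H18Rik, and its counts are uncertain because the use of strand in counting is not known here. NG2-dsRed+ libraries had 11.2 to 60.6 CPM (median 30.7), PSC libraries 0.350 to 4.30 CPM (median 1.56) and S100β-GFP+ libraries 0.145 to 18.7 CPM (median 1.69). PSCs lay below every NG2-dsRed+ library, and the S100β-GFP+ range overlapped both. The log2 fold changes against NG2-dsRed+ cells were -4.03 in PSCs (standard error 0.57, adjusted p = 1.14e-06) and -2.82 in S100β-GFP+ cells (standard error 0.57, adjusted p = 0.000225). The latter was -3.54 without S100β-GFP+ library 17 (adjusted p = 7.29e-06) and -5.00 without libraries 14, 17 and 22 (adjusted p = 3.73e-08). Between PSCs and S100β-GFP+ cells the difference was not called (-1.21, standard error 0.57, adjusted p = 0.0813). Here too libraries 14, 17 and 22 were highest in their group (6.35, 18.7 and 8.72 CPM, against 0.145 to 2.00 CPM), and without them the difference was 1.02 (adjusted p = 0.115) in the opposite direction. Without library 17 alone it was -0.50 (adjusted p = 0.470). The call itself appeared with DESeq2 (-1.27, adjusted p = 0.0437).

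Markers of endothelium and of pericytes and smooth muscle were, like both genes, highest in NG2-dsRed+ cells. In PSCs and S100β-GFP+ cells the endothelial sums had medians of 358 and 208 CPM, and those of pericytes and smooth muscle 393 and 789 CPM. Between these cell types the median of Gja4 moved with the endothelial sum only, and that of Gja5 with the other sum only. Of the 8 endothelial markers none was at 0 throughout any cell type. Their sum was 125 to 697 CPM in PSC libraries, and Pecam1 and Cdh5, which define endothelium, had means of 50.5 and 129.5 CPM there, against 448 and 921 CPM in NG2-dsRed+ cells. Among PSCs the levels did not follow this sum throughout. Library 31, with the largest (697 CPM), had the highest Gja4 (15.3 CPM), but library 18, with the smallest (125 CPM), had 7.36 CPM, above the median, and Gja5 was highest in library 20 (4.30 CPM, with an endothelial sum of 335 CPM). Within NG2-dsRed+ cells libraries 28 and 35 had the smallest endothelial sums (1614 and 2009 CPM) and the lowest levels of both Gja4 (106 and 124 CPM) and Gja5 (15.7 and 11.2 CPM). Library 15, with the largest sum (3821 CPM), had the highest levels (241 and 60.6 CPM). Between these ends Gja4 did not follow the endothelial sum throughout. Libraries 9 and 13 had 199 and 216 CPM of Gja4 with sums of 2584 and 2745 CPM. Libraries 2 and 30 had 165 and 158 CPM with sums of 3415 and 3332 CPM. The 3 NG2-dsRed+ libraries with the largest pericyte and smooth muscle sums (9, 13 and 15, at 13562 to 14916 CPM) had the 3 highest levels of Gja4 (199 to 241 CPM), and libraries 28 and 35 had the smallest of these sums as well (7265 and 6782 CPM). S100β-GFP+ libraries 14, 17 and 22 were highest in their group in this sum too (911 to 1524 CPM, against 208 to 814). NG2-dsRed+ libraries 28 and 35 had the largest fibroblast sums of their group (19175 and 15117 CPM). The part of endothelial, pericyte, smooth muscle and fibroblast RNA in the levels of these genes was not tested.

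**Figure D3:**
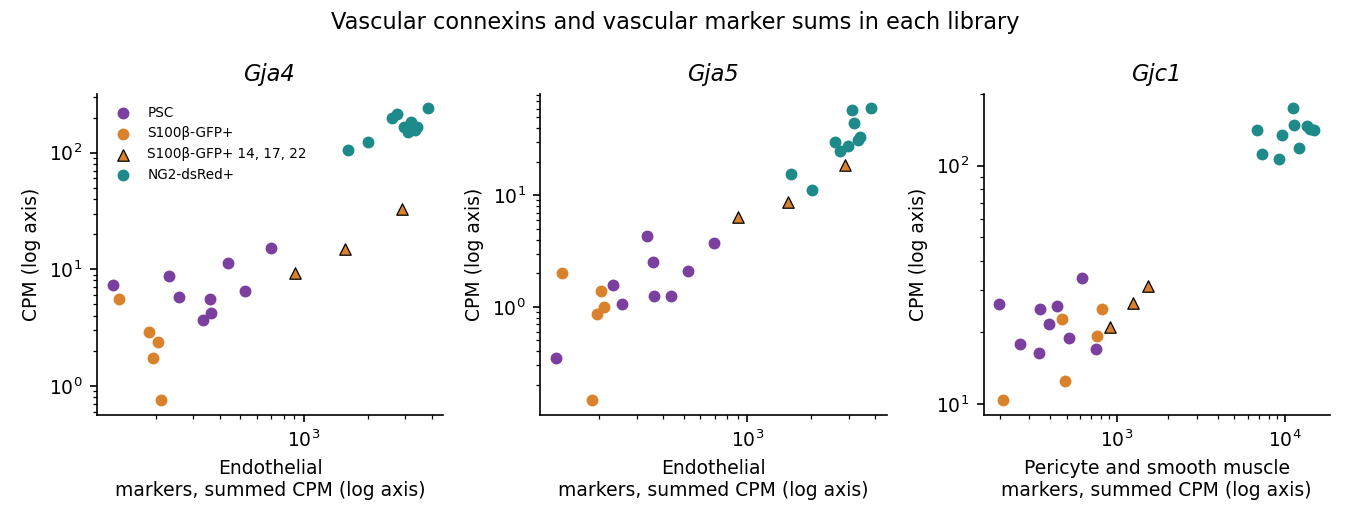
Gja4 and Gja5 against the sum of 8 endothelial markers, and Gjc1 against the sum of 8 pericyte and smooth muscle markers, all in CPM on log axes, with 1 point per library. S100β-GFP+ libraries 14, 17 and 22 (triangles) have both the highest endothelial sums (907 to 2883 CPM) and the highest Gja4 and Gja5 of their group. NG2-dsRed+ libraries lie apart for Gjc1, with 107 to 174 CPM.

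Gjc1 (ENSMUSG00000034520, chromosome 11, 102799579 to 102819700), which encodes connexin 45 of vascular smooth muscle and the heart's nodes, was likewise highest in NG2-dsRed+ cells. It had 107 to 174 CPM in NG2-dsRed+ libraries with a median of 141, 16.4 to 33.7 CPM in PSC libraries with a median of 21.7, and 10.4 to 31.2 CPM in S100β-GFP+ libraries with a median of 21.9. NG2-dsRed+ cells did not overlap the other cell types, and those overlapped each other. The log2 fold changes against NG2-dsRed+ cells were -2.60 in PSCs (6.05-fold lower, standard error 0.18, adjusted p = 1.42e-12) and -2.70 in S100β-GFP+ cells (6.48-fold lower, standard error 0.19, adjusted p = 7.65e-12). PSCs and S100β-GFP+ cells differed by 0.10 (standard error 0.18, adjusted p = 0.688). Pericyte and smooth muscle markers moved with it, with sums of 6782 to 14916 CPM in NG2-dsRed+ libraries against 199 to 1524 CPM in all others. Their part in the difference was not tested.

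Of the pannexins, Panx1 (ENSMUSG00000031934, chromosome 9, 15002128 to 15045478), the widely expressed ATP release channel, was highest in S100β-GFP+ cells. Those libraries had 13.4 to 34.0 CPM (median 22.5), PSC libraries 0.350 to 14.2 CPM (median 12.6) and NG2-dsRed+ libraries 3.03 to 9.01 CPM (median 5.78). S100β-GFP+ libraries did not overlap NG2-dsRed+ libraries, and PSCs overlapped both. Panx1 was lower in PSCs than in S100β-GFP+ cells (log2 fold change -1.25, 2.37-fold lower, standard error 0.35, adjusted p = 0.00401) and 3.97-fold higher in S100β-GFP+ than in NG2-dsRed+ cells (1.99, standard error 0.35, adjusted p = 3.48e-05). The higher mean of PSCs over NG2-dsRed+ cells was not called (0.74, standard error 0.33, adjusted p = 0.0716). PSC library 18 had 2 counts of Panx1, or 0.350 CPM, while the other PSC libraries had 4.63 to 14.2 CPM. Without library 18 the difference from NG2-dsRed+ cells passed the threshold (0.97, adjusted p = 0.00105), and it did so as well by DESeq2 (0.79, adjusted p = 0.0366) and limma-voom (0.86, adjusted p = 0.00718), and when PSC library 20 or 36, S100β-GFP+ library 11 or NG2-dsRed+ library 28 was left out (0.81 to 0.91). Macrophage markers, at 222 to 1456 CPM in S100β-GFP+ libraries, and fibroblast markers were also highest in the cell type with most Panx1. Libraries 3 and 11 had its largest macrophage sums (1456 and 1268 CPM) and Panx1 of 16.9 and 13.4 CPM. Libraries 14 and 33 had its largest fibroblast sums (41846 and 36587 CPM) and Panx1 of 31.4 and 34.0 CPM. Library 22 had the smallest macrophage sum (222 CPM), and library 3 the smallest fibroblast sum (18323 CPM). The part of these markers was not tested. Among S100β-GFP+ libraries, 14, 17 and 22 had 31.4, 21.0 and 16.6 CPM of Panx1, within the range of the other 5.

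Panx2 (ENSMUSG00000058441, chromosome 15, 89059734 to 89073567), a pannexin of neurons and glia, was close to the detection limit and was not tested. It had 10 counts over the 9 PSC libraries (7 of them at 0), 12 over the 8 S100β-GFP+ libraries (4 at 0) and 5 over the 10 NG2-dsRed+ libraries (7 at 0). It overlaps 1810021B22Rik on the opposite strand.

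When levels were divided by exon length (RPKM, counts per 1000 bases of exon per 1000000 counts), which allows levels of different genes to be compared, the makeup of connexin RNA separated the cell types. Over the 20 connexin genes, the summed RPKM had a median of 140 in PSCs (123 to 183), 38.3 in S100β-GFP+ cells (23.5 to 66.6) and 162 in NG2-dsRed+ cells (108 to 211). Gjc3 was the leading connexin in 9 of 9 PSC libraries, with 70.7% to 86.6% of the sum (median 83.6%). Gja4 led in 10 of 10 NG2-dsRed+ libraries, with 57.8% to 68.5% (median 60.8%), ahead of Gjc1 (median 17.0%) and Gja1 (median 11.4%). S100β-GFP+ libraries had no single leading connexin. Gjc3 led in 4 of the 8 and Gja1 in the other 4, with medians of 33.2% and 33.0%. Without libraries 14, 17 and 22 Gjc3 led in 4 of the remaining 5. Gjc1 (median 10.2%) and Gja4 (median 5.96%) came next in the 8. Gjb1 held a median of 5.22% of connexin RNA in S100β-GFP+ cells and 0.600% in PSCs. In PSC library 18, Gjb2 took 13.1%, against a median of 2.60%. These shares depend on the annotated exon lengths, which run from 1685 bases for Gja4 to 10257 for Gja1.

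The order of mean RPKM in PSCs was Gjc3 (120 ± 23.8, SD, n = 9), Gja1 (10.8 ± 2.32), Gjb2 (4.68 ± 4.72), Gja4 (4.51 ± 2.20), Gjc1 (4.50 ± 1.13), Panx1 (1.61 ± 0.827), Gjb1 (1.17 ± 0.999), Gja5 (0.351 ± 0.226) and Panx2 (0.0454 ± 0.0974). The levels of Gjb2, Gja4 and Gjc1 did not differ beyond their spread, nor did those of Panx1 and Gjb1. In NG2-dsRed+ cells the order was Gja4 (101 ± 24.3, SD, n = 10), Gjc1 (27.3 ± 3.96), Gja1 (19.0 ± 5.19), Gja5 (5.87 ± 2.84), Gjc3 (1.70 ± 0.670), Gjb2 (1.44 ± 0.566), Panx1 (0.958 ± 0.297), Gjb1 (0.148 ± 0.251) and Panx2 (0.0193 ± 0.0359). Gjc3 and Gjb2 lay within their spread of each other there. S100β-GFP+ cells had Gja1 (13.7 ± 6.23, SD, n = 8) and Gjc3 (12.0 ± 6.39) at the top, within their spread of each other, and then Gja4 (5.24 ± 6.46), Gjc1 (4.22 ± 1.40), Panx1 (3.83 ± 1.23), Gjb1 (2.31 ± 1.40), Gja5 (0.852 ± 1.10), Gjb2 (0.126 ± 0.0982) and Panx2 (0.0667 ± 0.125). Without libraries 14, 17 and 22, Gja4 had 1.58 ± 1.07 RPKM in the remaining 5, and Gjc3 (14.4 ± 6.76) exceeded Gja1 (9.33 ± 1.18) in mean.

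**Figure D4:**
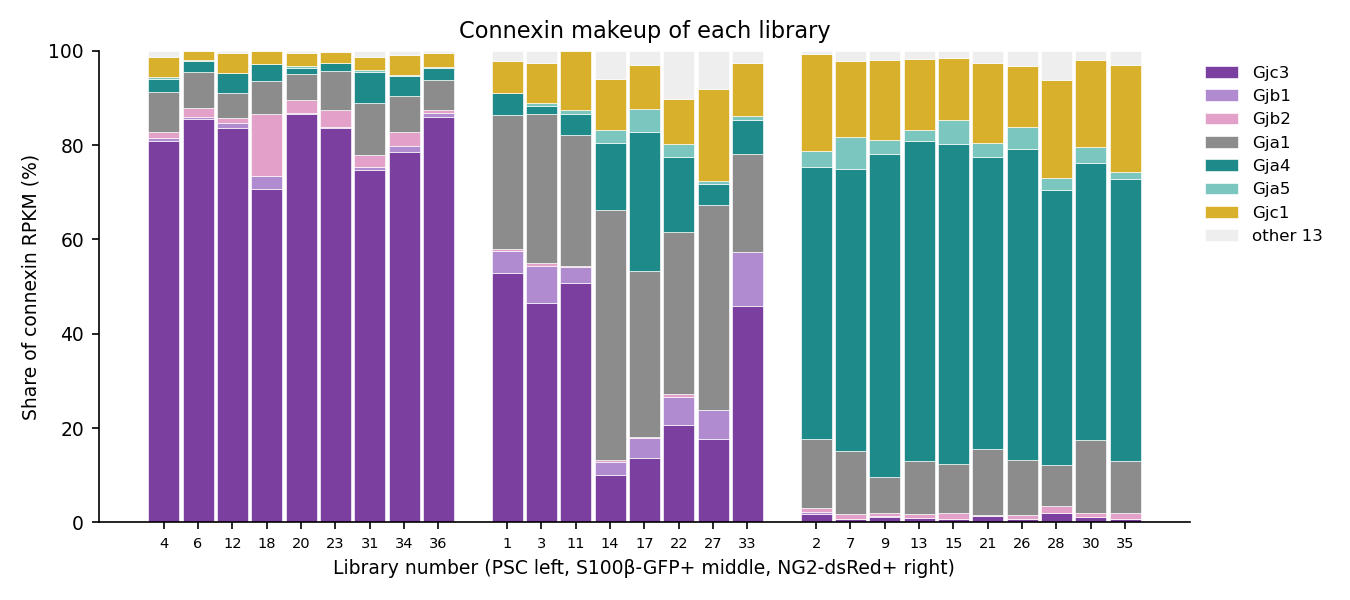
Share of each connexin gene in the connexin RNA of each library, in percent of the summed RPKM of 20 connexin genes, with library numbers along the axis. Gjc3 fills 70.7% to 86.6% of every PSC bar and Gja4 57.8% to 68.5% of every NG2-dsRed+ bar, while the S100β-GFP+ bars are mixed.

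The other 14 connexin and pannexin genes, among them connexins of lens, skin and neurons, were nearly absent. Only Gjb5, a connexin of skin, passed the filter. It had 1.28 to 9.43 CPM in NG2-dsRed+ libraries, 0 to 1.86 CPM in PSC libraries and 0 to 2.61 CPM in S100β-GFP+ libraries. It was lower than in NG2-dsRed+ cells in PSCs (log2 fold change -3.05, standard error 0.60, adjusted p = 0.000130) and in S100β-GFP+ cells (-1.98, standard error 0.60, adjusted p = 0.0110), and PSCs and S100β-GFP+ cells did not differ beyond the replicate error (-1.07, adjusted p = 0.167). Panx3, a pannexin of cartilage, bone and skin, had 324 counts (46.3 CPM) in PSC library 31 and 0 in the other 8 PSC libraries. That library also had 450 CPM of tenocyte and chondrocyte markers, against 3.25 to 28.1 CPM in the other PSC libraries.

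Proteins that bind, traffic or modify connexins were examined as a list of 17 genes, of which 16 were tested. Against S100β-GFP+ cells 3 were higher in PSCs (Cdh2, Src and Prkca) and 4 were lower (among them Ccn3, Dbn1 and Cgnl1), where 22.9% and 24.1% of all genes tested were called higher and lower. The median log2 fold change of the 16 was -0.01, and that of all genes 0.04. Without S100β-GFP+ libraries 14, 17 and 22, 10 of the 16 were called in place of 7. The share of all genes called in that setting is not given here, so the rise is not read as a trait of the list. In the comparison with NG2-dsRed+ cells 3 were higher (Cdh1, Prkca and Src) and 7 lower (20.9% and 23.1% of all genes), with a median of -0.74 against 0.02 over all genes. S100β-GFP+ cells had 4 higher and 6 lower than NG2-dsRed+ cells (18.1% and 15.2% of all genes).

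The kinases Src and Prkca, both of which phosphorylate connexin 43, were higher in PSCs than in either other cell type. For Src, the mean level was 49.4 CPM in PSCs, 16.3 among S100β-GFP+ cells and 20.9 among NG2-dsRed+ cells (log2 fold changes of PSCs 1.60, adjusted p = 6.15e-07, and 1.24, adjusted p = 1.00e-05). For Prkca, which encodes protein kinase C alpha, the means were 61.0, 35.5 and 17.0 CPM (0.78, adjusted p = 0.000244, and 1.84, adjusted p = 8.73e-11). Csnk1d, another kinase acting on connexin 43, had 75.8, 76.8 and 80.5 CPM, and passed the threshold in no comparison.

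Ccn3, a matricellular protein that binds connexin 43, had the largest difference of the list. The mean was 5.57 CPM for PSCs, 157 for S100β-GFP+ cells and 56.8 for NG2-dsRed+ cells (log2 fold changes of PSCs -4.83, adjusted p = 8.28e-11, and -3.37, adjusted p = 2.76e-08). Tjp1 (ZO-1; log2 fold change -1.40), a scaffold that anchors connexins at junctions, was lower in PSCs than in NG2-dsRed+ cells, and so were the junction proteins Cgnl1 (paracingulin; -2.03) and Ocln (occludin; -2.26). The difference of Tjp1 between PSCs and S100β-GFP+ cells was not called (0.00, standard error 0.34, adjusted p = 0.993), and S100β-GFP+ libraries 14, 17 and 22 had a mean of 112 CPM against 25.3 CPM in the other 5. Without the 3, Tjp1 was higher in PSCs (1.24, adjusted p = 0.000164), and it was also called with a term for gene detection (0.99, adjusted p = 0.0150). Cav1, the caveolin of endothelium and smooth muscle, had 193 CPM in PSCs and 1636 CPM in NG2-dsRed+ cells (-3.08, adjusted p = 1.88e-06). Dbn1, the actin-binding drebrin that holds connexin 43 at the membrane, was lower in PSCs than in S100β-GFP+ cells (-2.49, adjusted p = 1.25e-06). Cnst, which encodes consortin, a connexin sorting receptor, was lower in PSCs than in NG2-dsRed+ cells (-0.85, adjusted p = 0.0460) but was not past the threshold with DESeq2 size factors (-0.80, adjusted p = 0.0588) or when any of 16 of the 27 libraries was left out (-0.86 to -0.70).

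Cadherins, whose adhesion precedes gap junction assembly, split. Cdh2 (N-cadherin) had means of 17.1, 6.31 and 18.6 CPM for PSCs, S100β-GFP+ cells and NG2-dsRed+ cells, and PSCs exceeded S100β-GFP+ cells (log2 fold change 1.44, adjusted p = 3.74e-07). Cdh1 (E-cadherin, found in the autotypic junctions of myelinating Schwann cells) had 5.10, 6.18 and 0.613 CPM, and was higher in PSCs than in NG2-dsRed+ cells (2.99, adjusted p = 0.000239, and 3.68 without NG2-dsRed+ library 9). Between PSCs and S100β-GFP+ cells its difference was not called (-0.27, adjusted p = 0.731).

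**Figure D5:**
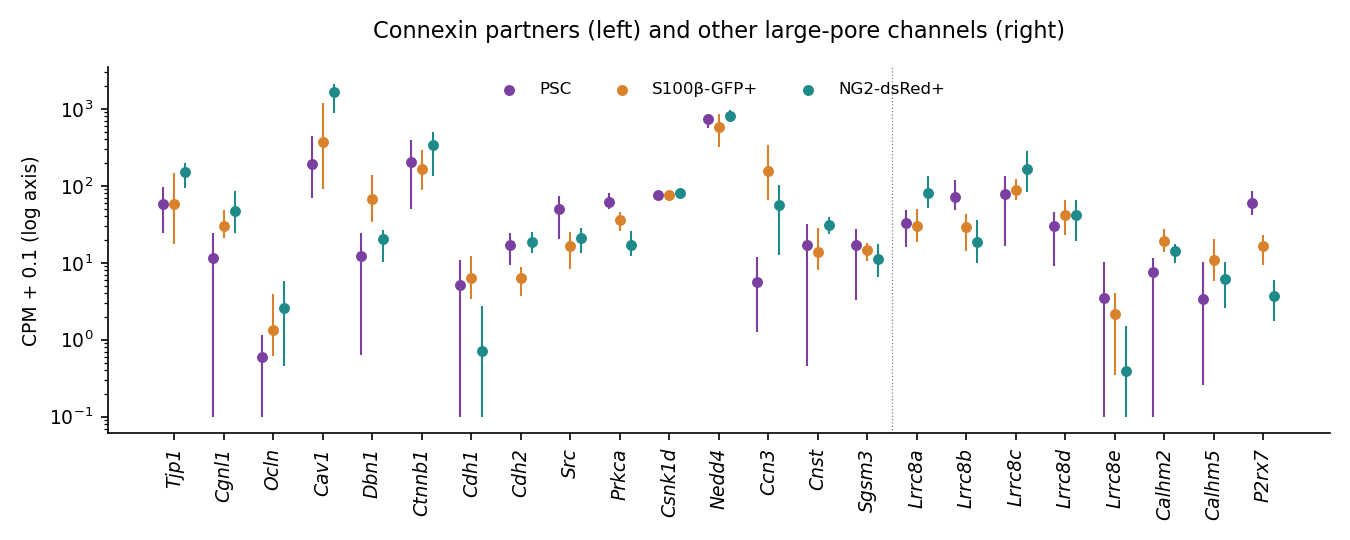
Mean level of connexin partners (left of the dotted line) and other large-pore channels (right), as CPM plus 0.1 on a log axis, for the 3 cell types, with bars from the lowest to the highest library. Ccn3 has the widest separation of PSCs (mean 5.57 CPM) from S100β-GFP+ cells (157 CPM), and P2rx7 falls from PSCs (60.4 CPM) through S100β-GFP+ cells (16.2 CPM) to NG2-dsRed+ cells (3.57 CPM).

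Other channels with wide pores or with a part in ATP signaling were read as a list of 13 genes, and 8 were tested. PSCs had 2 higher and 2 lower than S100β-GFP+ cells (22.9% and 24.1% of all genes), and 3 higher and 3 lower than NG2-dsRed+ cells (20.9% and 23.1% of all genes), with medians of -0.02 and -0.67 (0.04 and 0.02 over all genes). S100β-GFP+ cells had 3 higher and 2 lower than NG2-dsRed+ cells (18.1% and 15.2% of all genes). P2rx7, the ATP-gated channel known to work with pannexin 1, had means of 60.4, 16.2 and 3.57 CPM. PSCs exceeded S100β-GFP+ cells (log2 fold change 1.90, adjusted p = 6.35e-08) and NG2-dsRed+ cells (4.07, adjusted p = 2.73e-14). Its order thus differs from that of Panx1, which was lower in PSCs than in S100β-GFP+ cells.

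Subunits of the volume-regulated anion channel did not move as a block. Lrrc8a, the obligatory subunit, had means of 33.0, 30.3 and 80.5 CPM for PSCs, S100β-GFP+ cells and NG2-dsRed+ cells, and was lower in PSCs than in NG2-dsRed+ cells (log2 fold change -1.28). Lrrc8b had 71.4, 28.9 and 18.6 CPM and was higher in PSCs than in both (1.31 and 1.94). Lrrc8c was lower (-1.08) and Lrrc8e higher (3.48, and 4.21 without NG2-dsRed+ library 21) in PSCs than in NG2-dsRed+ cells, while Lrrc8d passed the threshold in no comparison. Calhm2 and Calhm5, members of a family that includes ATP release channels, had lower levels in PSCs than among S100β-GFP+ cells (-1.32 and -1.69). The vesicular nucleotide transporter Slc17a9 did not pass the filter.

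The genes whose levels followed each member most closely were found by Pearson's r of log2 CPM over the 27 libraries, which share their cell types, depth and cell mixture, so r is a description. Among the closest to Gjc3 were Shc4 (r = 0.981) and Sox10 (0.978), Sox10 being the factor of the Schwann cell lineage. Within the 9 PSC libraries alone r with Sox10 was -0.0029, and within the 8 S100β-GFP+ libraries 0.881. Gja4 went with Pear1 (0.979), Olfr558 (0.973) and S1pr3 (0.971), and Gjc1 with Heyl (0.967), Gucy1a1 (0.964) and Pear1 (0.963), where S1pr3 and Gucy1a1 encode a sphingosine-1-phosphate receptor and a subunit of the nitric oxide receptor. The caveolar and endothelial genes Cavin2 (0.959), Cdh13 (0.957) and Cav1 (0.955) were closest to Gja5. Gja1 was nearest to Tgtp2 (0.924), Eng (0.903) and Shank3 (0.895), Eng being an endothelial receptor of TGF-beta, and its r with Eng was 0.935, 0.950 and 0.812 within PSCs, S100β-GFP+ cells and NG2-dsRed+ cells. Gjb2 was nearest to Csrp1 (0.908), Pwwp2a (0.904) and 2010111I01Rik (0.898), and Panx1 to Antxr1 (0.917), Wdr62 (0.916) and Umps (0.904). Gjb1 and Panx2 did not reach a mean of 5 CPM in any cell type and were left out.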

How the data were processed

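RNA of FACS-sorted S100β-GFP+;NG2-dsRed+ PSCs, S100β-GFP+ cells and NG2-dsRed+ cells was amplified with a SMART-Seq v4 kit and sequenced. The authors trimmed, aligned (HISAT2) and counted (HTSeq) the reads, and the deposited values are whole-number counts per gene without normalization. The submitters' processing notes name GRCm38. For tool versions, annotation and strand use, nothing is given in the sources used here. Columns were matched to samples by library number for 27 of the 36 libraries in the labels, and the other 9 were not analysed here. No columns were identical, and replicates all differed beyond sampling noise, with chi-square over degrees of freedom of 8.10 or more. Symbols and positions came from GENCODE M21, which has 52489 of the 52636 identifiers. Promoter sequences came from RefSeq.

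In R 4.3.3, edgeR 4.0.16 was run with TMM scaling, a low-count filter (filterByExpr, minimum count 10) that kept 15330 genes, all 27 libraries in one quasi-likelihood fit and Benjamini-Hochberg adjustment over all genes tested at 0.05. Standard errors were the log2 fold change over the square root of F. Log2 CPM for likeness used a prior count of 2. The steps were tested on simulated data. With 5221655 to 9592875 counts per library, genes at a few CPM rest on few counts, and counting error does not cover PCR copies. Alternatives were DESeq2 1.42.0, its size factors in edgeR, limma-voom (limma 3.58.1) with sample quality weights, no filter, only the cell types compared, a term for the share of counts that fell on 3 genes (Lars2, Gm23935, Gm15564), leaving out S100β-GFP+ libraries 14, 17 and 22, and leaving out each library in turn. The number of genes detected as a term was added after seeing the data.

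The members, marker lists and gene lists were chosen with earlier results of these data known. The genes named are the 9 members, list members past the threshold first, marker genes, and the 3 genes most correlated with each member whose mean reached 5 CPM in some cell type. Genes overlapping a named gene were named from the annotation. Some genes that these rules would name are not reported here.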

Additional observations from a re-analysis of the deposited data

Results flagged for a closer look

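In 33 groups of 8 to 10 libraries, the highest and lowest levels of the 9 members, Gjb5 and Panx3 were compared with their nearest neighbour by Dixon's criterion. Chance passes it in about 1 of 20 groups where values are normally distributed. The levels here are CPM without a log, and those of Panx2 and Panx3 are often 0, so that rate need not hold. By this criterion 9 groups held a library that stood apart. PSC library 18 had 5.96 CPM of Gjb1 (next 2.72) and 39.8 CPM of Gjb2 (next 13.9), and the same library had the fewest genes with counts (14616), the largest sum of muscle fibre markers (1191 CPM) and the lowest Panx1 (0.350 CPM) among PSCs. S100β-GFP+ library 17 had 33.1 CPM of Gja4 (next 14.8) and 18.7 CPM of Gja5 (next 8.72), together with the largest endothelial marker sum of its group (2883 CPM, next 1551) and the largest pericyte and smooth muscle sum (1524 CPM, next 1244). PSC library 31 had 46.3 CPM of Panx3, which had no count in the other 8 PSC libraries, beside a tenocyte and chondrocyte marker sum of 450 CPM (next 28.1). The part of these markers in the levels was not tested.

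The remaining 4 are genes with a few counts. Panx2 reached 1.00 CPM in PSC library 31, 1.32 CPM in S100β-GFP+ library 22 and 0.390 CPM in NG2-dsRed+ library 26, and Panx3 reached 0.356 CPM in NG2-dsRed+ library 13.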

How the results depend on the processing

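No paired analysis was possible because the library numbers do not show which libraries came from the same mouse. Libraries of different cell types may share a mouse, and the tests took them as independent. Over 24 differences of members and all alternatives, 838 values were recomputed. Of these, 807 kept their direction and side of the threshold, none lost a call, 18 gained one and 13 changed sign, the last all between PSCs and S100β-GFP+ cells. The called differences of Gjb1 from NG2-dsRed+ cells have no value with only the cell types compared. In those fits Gjb1 did not pass the filter on low counts, so its calls could not be checked there. Without the filter on low counts 16556 genes were called between PSCs and S100β-GFP+ cells (7198 with it) and 10586 between S100β-GFP+ and NG2-dsRed+ cells (5099 with it). The same choice raised the calls among the other connexin and pannexin genes to 6 for PSCs against S100β-GFP+ cells, 5 for PSCs against NG2-dsRed+ cells and 3 for S100β-GFP+ against NG2-dsRed+ cells, and the calls among other large-pore channels to 7 for PSCs against S100β-GFP+ cells, since genes with few counts are then tested. The share of all genes called without the filter is not given here, so these counts are not read as results about the lists. Between PSCs and S100β-GFP+ cells, Gja1 turned to 0.012 with the share of counts on 3 genes as a term, 0.047 with gene detection as a term and 0.27 without S100β-GFP+ libraries 14, 17 and 22. Gja4 turned to 0.34 and 0.84 with these terms, 0.94 by limma-voom and 1.62 without the 3 libraries. Gja5 turned to 0.31 with gene detection as a term, 0.39 by limma-voom and 1.02 without the 3 libraries, and Gjc1 to -0.0028 with the share of counts on 3 genes. In the same comparison Cdh1 turned to 0.039 with that share as a term, and Tjp1, at 0.00, to -0.015 with DESeq2 size factors, -0.016 by DESeq2 and -0.015 with only the cell types compared. Leaving out each library in turn gave -0.37 to 0.52 for Gja4, -0.0060 to 0.20 for Gjc1 and -0.13 to 0.37 for Tjp1. The difference of Gja5 was called without S100β-GFP+ library 1, 3 or 27 (-1.41 to -1.37), and that of Gja1 between S100β-GFP+ and NG2-dsRed+ cells without S100β-GFP+ library 14 or 17 (-0.58 and -0.62). Other causes were not tested. Gjb1, Gjb2 in S100β-GFP+ cells and Panx2 rest on few counts, which limits their precision.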

Other observations

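Neighbouring connexin genes had unlike levels. Gjb2 lies with Gja3 and Gjb6 in 99.2 kb of chromosome 14, and over the 9 PSC libraries Gjb2 had 761 counts, Gja3 47 and Gjb6 3. Gja4 and Gjb5 are both on chromosome 4, and the 10 NG2-dsRed+ libraries had 11327 counts of Gja4 and 322 of Gjb5. The most genes were detected in S100β-GFP+ libraries 14, 17 and 22. Libraries 14 and 22 held 9 of 9 counts of Gjb6 (1 and 8) and 8 of 8 of Gja3 (3 and 5) in their group, and library 17 had 0 of both. The source of these counts was not tested.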
